A study of Mus musculus with 9 samples.

Results

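The 9 genes described here, Calca, Calcb, Chga, Chgb, Scg2, Scg5, Pcsk1, Insm1 and Gad1, encode peptides, granule proteins, a prohormone convertase and further products typical of neuroendocrine cells. They were chosen by gene name from arrays of the newborn mouse esophagus, where they are 9 of 28099 named genes and take 14 of 41174 probes. The choice was made with the comparison of p63KO and WT in view, in which Calcb and Gad1 were noted as higher, so the members' values in that comparison are a description and test nothing about them. The groups were p63-/- mice with a Cdx2 transgene named in the series title as Villin-Cdx2 (p63KO/Cdx2, n = 2), p63-/- mice (p63KO, n = 3) and mice of the WT genotype (n = 4), all at postnatal day 0 on the C57BL/6J strain background. Villin is an intestinal epithelial gene, p63 (Trp63) is a transcription factor of stratified epithelia, and Cdx2 is an intestinal transcription factor. The labels call the samples biological replicates, number the p63KO/Cdx2 samples out of 3 (replicate 3 was not analysed here), and name p63-/- as the source of WT replicate 4 although its genotype is given as WT. Sample RNA carried Cy5, and a universal mouse reference RNA, pooled from 11 cell lines, carried Cy3 on all arrays. Slide and scan changed together with genotype, so these batches and the genotypes cannot be told apart.

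Neuroendocrine cells pack peptides into dense core granules and release them on stimulation. Prohormones enter the granules with chromogranins and secretogranins, and convertases such as the product of Pcsk1 cut them there into active peptides. Calca gives rise to calcitonin and, through alternative splicing, to alpha-CGRP, and its neighbour Calcb encodes beta-CGRP, peptides of thyroid C cells, sensory and enteric neurons and pulmonary neuroendocrine cells. Such cells are known from thyroid, lung, gut and nerve ganglia, which lie near the esophagus or within its wall.

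The tissue labels were checked against marker genes. The Trp63 probe at the end of the transcript had log2 ratios of 3.37 and 3.09 in p63KO/Cdx2, 2.74, 2.73 and 2.73 in p63KO, and 3.53, 3.79, 4.35 and 4.13 in WT. The p63KO arrays were lowest on that probe, by 1.22 below WT on the log2 scale (adjusted p = 0.0217, limma), while a dimmer probe nearer the transcript's start ran the other way, with 1.44 and 1.14 in p63KO/Cdx2, 0.71, 0.83 and 0.74 in p63KO, and 0.29, 0.39, 0.67 and 0.73 in WT. Which of these probes lies in the deleted part is not given in the sources used here. The summed sample signal of 10 measured squamous markers was 40440 to 45130 in p63KO/Cdx2 and 35870 to 53050 in p63KO, against 251200 to 322500 in WT. All 12 airway and lung markers were well above background on every array, at a summed signal of 576300 to 1142000 in p63KO/Cdx2, 967200 to 1378000 in p63KO and 858700 to 1413000 in WT. Thyroid and parathyroid markers differed between arrays of the same group, with a summed signal of 6158 and 10310 in p63KO/Cdx2, 13010, 106900 and 104100 in p63KO, and 4689, 74690, 251100 and 185900 in WT. The labels name epithelium as the cell type and whole esophagus as the source tissue of the RNA. Several tissues were thus read together, and a lower share of a cell type and less RNA per cell cannot be told apart.

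Values are given as log2 ratios of sample over reference, normalised within each array, and as log2 sample signals scaled across arrays. A probe was called well above background by the scanner software's own flag. All 9 genes passed the filter on dim probes, which asked for that flag on at least 2 of 9 arrays, and 11 of their 14 probes did. The 3 probes that failed were 1 further probe each of Chgb, Gad1 and Pcsk1.

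Calcb had log2 ratios of 0.56 and 1.01 in p63KO/Cdx2, 1.62, 1.60 and 1.80 in p63KO, and 0.68, 0.31, 0.12 and 0.15 in WT. With the processing used here all 3 p63KO arrays lay above all other arrays, and p63KO/Cdx2 replicate 1 lay within the WT range. In the authors' value table WT replicate 1, at 3.59, lay above all 3 p63KO arrays, at 3.47, 3.54 and 3.25. The probe (mm9 chr7:121866534-121866593, annotated to the Calcb mRNA) was well above background on every p63KO/Cdx2 and p63KO array and on 2 of 4 WT arrays. Its sample signal over local background was 65.6 and 175 in p63KO/Cdx2, 309, 326 and 448 in p63KO, and 71.3, 37.1, 17.1 and 27.6 intensity units in WT. The means were 0.78 ± 0.32 (SD, n = 2) in p63KO/Cdx2, 1.67 ± 0.11 (SD, n = 3) in p63KO and 0.31 ± 0.26 (SD, n = 4) in WT.

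Gad1, which encodes the GABA-forming enzyme GAD67, was read by a pair of neighbouring probes on the same transcript end. On the brighter probe (mm9 chr2:70439699-70439758) log2 ratios were 1.03 and 0.66 in p63KO/Cdx2, 0.79, 0.74 and 1.07 in p63KO, and 0.03, 0.13, 0.20 and 0.17 in WT. On the other probe (mm9 chr2:70439601-70439660) they were 0.93 and 0.70 in p63KO/Cdx2, 0.87, 0.76 and 0.88 in p63KO, and 0.27, 0.28, 0.12 and 0.22 in WT. On both probes every p63KO/Cdx2 and p63KO array lay above every WT array. In the authors' value table this held for the brighter probe. On the other probe WT replicate 2, at 2.46, lay above p63KO replicate 3, at 2.24, there. The probes share their target region and are not separate evidence, and they were well above background on all p63KO/Cdx2 and p63KO arrays but on 2 and 1 of the 4 WT arrays. Sample signals over background on the brighter probe were 158 and 122 in p63KO/Cdx2, 126, 145 and 204 in p63KO, and 24.6, 47.7, 25.6 and 38.9 intensity units in WT.

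Pcsk1, the convertase PC1/3, had log2 ratios of 2.11 and 2.12 in p63KO/Cdx2, 2.33, 2.12 and 2.53 in p63KO, and 0.95, 0.90, 1.27 and 1.54 in WT. The 5 arrays of mice without p63 lay above the 4 WT arrays. In the authors' value table they did not, and WT replicate 4, at 5.29, lay above all 5 of them. Sample signals over background were 400 and 490 in p63KO/Cdx2, 509, 568 and 761 in p63KO, and 185, 78.7, 141 and 215 intensity units in WT, well above background on all 9 arrays. The second Pcsk1 probe, which spans a splice junction within mm9 chr13:75236748-75243404, was well above background on 1 of 9 arrays. Its signals over background were 29.0 and 32.5 in p63KO/Cdx2, 31.2, 40.1 and 28.2 in p63KO, and 17.0, 10.1, 19.9 and 16.6 intensity units in WT. On the log2 ratio of this dim probe the groups overlapped, with 0.13 on p63KO replicate 3 against 0.17 on WT replicate 3, and nothing is drawn from it. The sequences of both Pcsk1 probes are shown because they read separate parts of the mRNA. For the first probe the letters end with the stop codon, in capitals, at mm9 chr13:75269727-75269767.
Pcsk1 first probe: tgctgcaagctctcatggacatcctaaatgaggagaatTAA
Pcsk1 second probe: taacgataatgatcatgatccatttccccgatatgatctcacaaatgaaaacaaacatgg

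**Figure D1:**
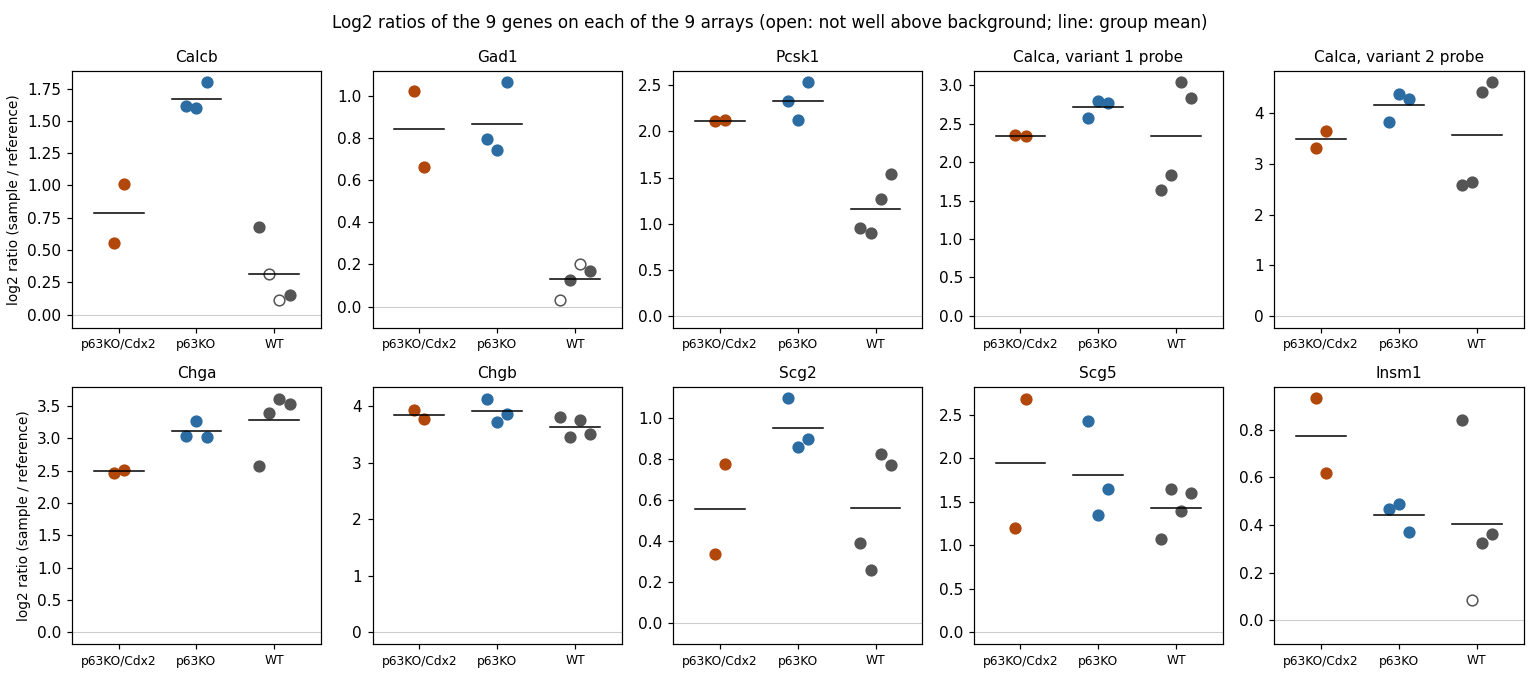
Log2 ratio of sample over reference (vertical axis) for 10 probes of the 9 genes on each array, by group (horizontal axis). Points are arrays, open where the probe was not well above background, and lines are group means; Gad1 and Pcsk1 show p63KO/Cdx2 and p63KO arrays above all WT arrays, and Calcb shows p63KO above all others.

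In p63KO against WT, the means differed by 1.36 for Calcb, 1.16 for Pcsk1 and 0.74 for Gad1 on the log2 ratio scale, and by 1.71, 1.31 and 0.88 on the sample channel. These 3 genes are the members inside the threshold by which the contrast was read, in which 0.813% of 22638 genes lay on the log2 ratio and 1.99% on the sample channel. Groups did not overlap for 4 of the 9 genes on the log2 ratio, beside 11.8% of all genes. The genes were chosen with this contrast known, so nothing is read from these counts. The sizes depended on the processing. Calcb differed by 1.78 with plain background subtraction, and its means in the authors' value table were 3.42 in p63KO and 2.23 in WT. Gad1 differed by 1.25 with plain background subtraction, 1.46 in the scanner software's processed signals and 1.40 in the authors' value table, and Pcsk1 by 0.64 in the processed signals and 0.58 in the authors' table. Calcb and the brighter Gad1 probe were not well above background on 2 of the 4 WT arrays. Outside the threshold, the differences of the remaining members on the log2 ratio scale ran between -0.16 for Chga and 0.39 for Scg2.

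Of the 9 genes 2 rose in p63KO/Cdx2 against WT, namely Gad1 and Pcsk1, where 3.56% of all genes passed the same test. Gad1 was higher by 0.71 (95% interval 0.42 to 1.01, adjusted p = 0.0264, limma over all 9 arrays), a fold of 1.64 on this scale. Pcsk1 was higher by 0.95 (0.53 to 1.38, adjusted p = 0.0335, limma), a fold of 1.94 on this scale. The reference signals of both genes were near background. A constant (offset) added to both channels in background correction draws such ratios towards no difference, so these are not fold changes of RNA. Mean sample signals over background were 140.3 units in p63KO/Cdx2 and 34.2 in WT for Gad1, and 445.2 and 154.7 for Pcsk1. Both genes were higher in 2 of 2 p63KO/Cdx2 arrays than in any WT array. Groups did not overlap for 3 of the 9 genes, near the 31% of all genes with groups of 2 and 4 arrays. The WT arrays are those that the choice of genes used, so this comparison is not independent of it. A gene chosen as higher than these WT arrays is by that favoured to be higher in any other group, so the 2 calls are a description. Calcb differed by 0.47 (0.06 to 0.88, adjusted p = 0.181) and did not pass, and Chga differed by -0.79 (-1.39 to -0.20, adjusted p = 0.13) and did not pass.
On the sample channel, where 2.9% of genes passed, Gad1 differed by 0.89 (adjusted p = 0.0285) and Pcsk1 by 1.07 (adjusted p = 0.0562), so that Gad1 alone of the 9 genes passed there. In the log ratio, the Gad1 call was lost without p63KO/Cdx2 replicate 1 (0.53, adjusted p = 0.122) and without WT replicate 2, 3 or 4 (0.71, 0.74 and 0.72, adjusted p = 0.0714, 0.0551 and 0.0727). The Pcsk1 call was lost without either p63KO/Cdx2 array (0.96 and 0.95), without p63KO replicate 3 (0.95) and without WT replicate 1, 2 or 3 (0.88, 0.86 and 0.99), at adjusted p between 0.0532 and 0.125. Both calls were also lost in the authors' value table, with differences of 1.54 for Gad1 (adjusted p = 0.106, limma) and 0.87 for Pcsk1 (adjusted p = 0.625), and in the processed signals of the scanner software, with 1.67 (adjusted p = 0.0708) and 1.00 (adjusted p = 0.52).

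In p63KO/Cdx2 against p63KO, 0 of the 9 genes and 0% of all genes passed on the log2 ratio, where 3153 genes had an unadjusted p under 0.05. Calcb differed by -0.89 (95% interval -1.32 to -0.45), and both p63KO/Cdx2 arrays lay below the 3 p63KO arrays. Calcb was chosen for its height on these p63KO arrays, which by itself favours lower values in any other group, so this difference is a description. On the sample channel 0.296% of genes and 0 of the 9 passed, and Calcb differed by -1.05 (-1.68 to -0.43). In the processed signals of the scanner software the Calcb difference was -0.36, and in the authors' value table it was -0.44. Gad1 differed by -0.02 (-0.33 to 0.28) and Pcsk1 by -0.21 (-0.66 to 0.24), with folds of 0.80 and 0.63 at the lower ends. These folds hold for the offset log2 ratios only and do not bound a lower RNA level in p63KO/Cdx2. Groups did not overlap for 6 of the 9 genes on the log2 ratio, beside 31.9% of all genes with groups of 2 and 3 arrays. The comparisons with WT and with p63KO share arrays, and their values are given side by side only.

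**Figure D2:**
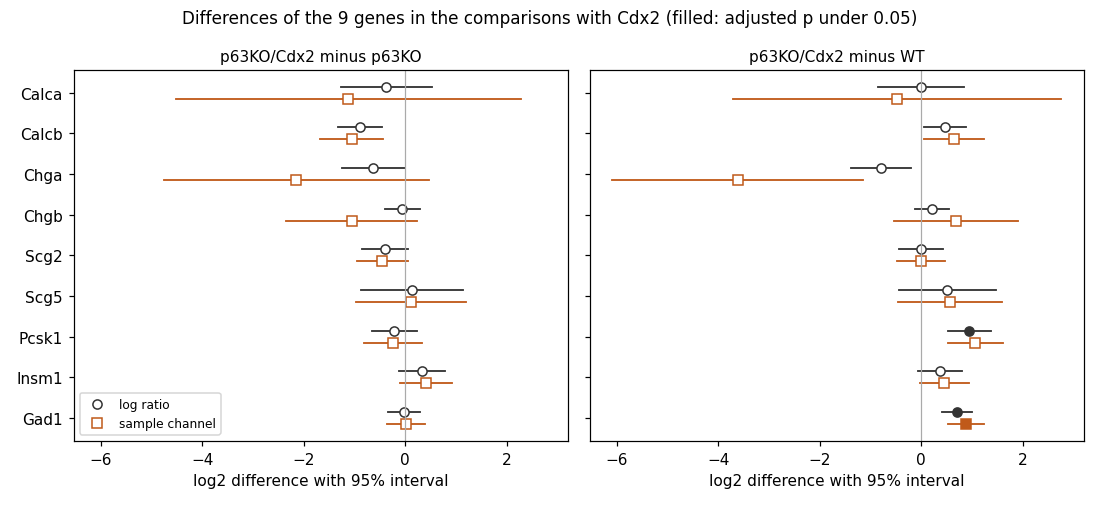
Log2 differences (horizontal axis) with 95% intervals for the 9 genes (vertical axis), p63KO/Cdx2 minus p63KO on the left and p63KO/Cdx2 minus WT on the right. Circles are log2 ratios and squares the sample channel, filled at an adjusted p under 0.05, as for Gad1 at 0.71 and 0.89 and for Pcsk1 at 0.95 on the right.

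Calca was read by a probe on its transcript variant 1 (mm9 chr7:121776832-121776891) and by a probe 3′ of it on variant 2 (mm9 chr7:121775204-121775263), both on the minus strand. On the variant 1 probe log2 ratios were 2.35 and 2.34 in p63KO/Cdx2, 2.58, 2.79 and 2.77 in p63KO, and 1.64, 1.83, 3.04 and 2.84 in WT. On the variant 2 probe they were 3.32 and 3.65 in p63KO/Cdx2, 3.84, 4.38 and 4.28 in p63KO, and 2.59, 2.64, 4.42 and 4.61 in WT. WT replicates 1 and 2 were lowest and WT replicates 3 and 4 were highest on both probes, so the WT group spanned the other groups.
On the sample channel, the variant 1 probe stood at 10.11 and 11.14 in p63KO/Cdx2, 10.85, 12.20 and 12.19 in p63KO, and 8.68, 9.13, 13.09 and 13.50 in WT. Thyroglobulin (Tg), the thyroid hormone precursor, stood at 8.14 and 12.41 in p63KO/Cdx2, 12.93, 16.07 and 16.26 in p63KO, and 7.77, 8.27, 17.54 and 16.91 in WT. The 4 arrays highest in Tg were the 4 highest in Calca, namely p63KO replicates 2 and 3 and WT replicates 3 and 4. The part of thyroid tissue in the Calca values was not tested. The Calca differences had adjusted p = 0.689 against p63KO and 0.992 against WT in p63KO/Cdx2 (limma).

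WT replicates 3 and 4, at the highest Tg signals, had the lowest Calcb signals, 6.15 and 6.31. Calcb was near background in WT, and not well above it on WT replicates 2 and 3, so its order within WT is not read. The part of thyroid tissue in the Calcb values was not tested. The nearest genes on either side of the Calca and Calcb pair that had probes were Cyp2r1, a vitamin D hydroxylase gene, and Insc, a gene of spindle orientation. The log2 ratio of Cyp2r1 differed by -0.25 (adjusted p = 0.561) in p63KO/Cdx2 against p63KO and by -0.04 (adjusted p = 0.962) in p63KO against WT. Insc differed by 0.06 (adjusted p = 0.87) and 0.03 (adjusted p = 0.971) in the same comparisons, all by limma.

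Chga, the granule protein chromogranin A (mm9 chr12:103803083-103803142), had log2 ratios of 2.46 and 2.51 in p63KO/Cdx2, 3.04, 3.28 and 3.03 in p63KO, and 2.58, 3.39, 3.61 and 3.53 in WT. Its sample signal over background was 1138 and 1814 in p63KO/Cdx2, 3455, 14123 and 7684 in p63KO, and 2202, 32868, 20488 and 35231 intensity units in WT. The p63KO/Cdx2 arrays were lowest, and WT replicate 1 stood apart from the other WT arrays. Parathyroid hormone (Pth) on the sample channel stood at 6.09 and 9.25 in p63KO/Cdx2, 6.82, 14.62 and 13.60 in p63KO, and 6.03, 16.11, 15.30 and 15.75 in WT, and was not well above background on p63KO/Cdx2 replicate 1 and WT replicate 1. On the same scale Chga stood at 9.83 and 10.42 in p63KO/Cdx2, 11.32, 13.15 and 12.34 in p63KO, and 10.94, 14.89, 14.33 and 14.79 in WT. The 5 arrays with the highest Pth were the 5 highest in Chga. Parathyroid chief cells are known to secrete chromogranin A, and their part in the Chga values was not tested. Without WT replicate 1 the Chga difference in p63KO/Cdx2 against WT was -1.02 on the log2 ratio (adjusted p = 0.00604, limma) and -4.55 on the sample channel (adjusted p = 0.00736), each then past the threshold. Of 9 fits without a single array this was the 1 in which Chga passed, and it kept only the WT arrays high in Pth.

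**Figure D3:**
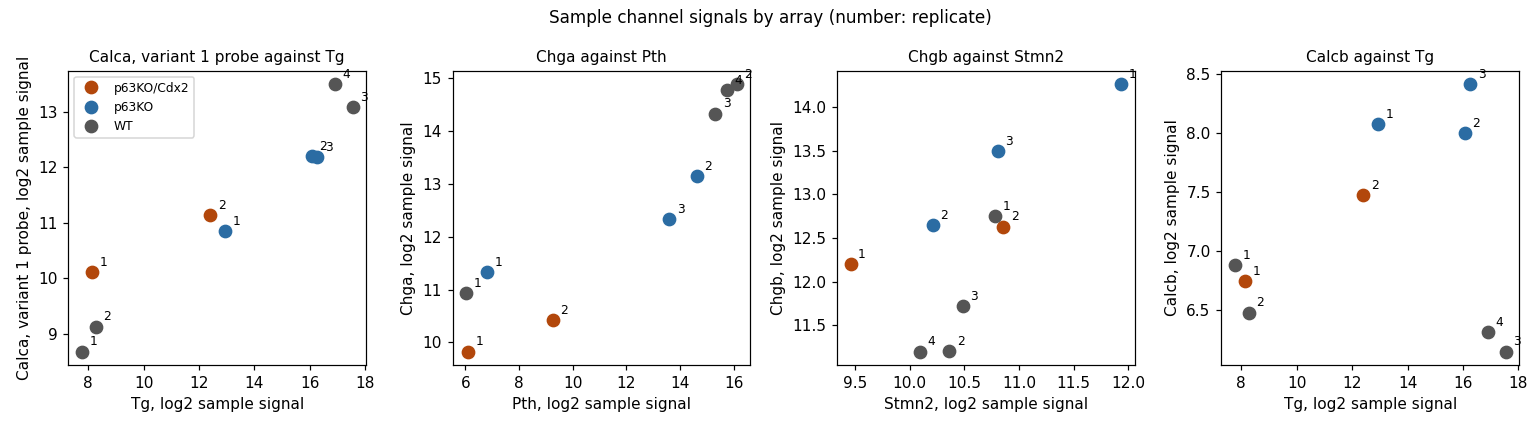
Log2 sample signals of Calca against Tg, Chga against Pth, Chgb against the neuronal gene Stmn2, and Calcb against Tg, on the 9 arrays (colour: group, number: replicate). The arrays highest in Tg are highest in Calca and those highest in Pth are highest in Chga. Calcb stands at 6.15 and 6.31, near background, on the WT arrays highest in Tg.

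Chgb, chromogranin B (mm9 chr2:132620703-132620762), was spotted 10 times per array and had an SD between spots of 0.05 to 0.17. Log2 ratios were 3.94 and 3.77 in p63KO/Cdx2, 4.13, 3.72 and 3.87 in p63KO, and 3.81, 3.46, 3.76 and 3.51 in WT, with overlapping groups. Its sample signals stood at 12.20 and 12.63 in p63KO/Cdx2, 14.26, 12.65 and 13.49 in p63KO, and 12.75, 11.20, 11.72 and 11.20 in WT. p63KO replicate 1 was highest in Chgb and also in Stmn2, a neuronal gene, at 11.94, against 9.46 to 10.86 on the other arrays, and in tyrosine hydroxylase (Th), the first enzyme of catecholamine synthesis, at 9.30, against 6.16 to 7.66. The enteric neuron list, of 17 measured genes, summed to 31390 and 51710 in p63KO/Cdx2, 68890, 44720 and 56820 in p63KO, and 53330, 45540, 47980 and 37160 in WT. The part of nerve tissue in the Chgb values was not tested.

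Scg2, which encodes secretogranin II, had log2 ratios of 0.34 and 0.78 in p63KO/Cdx2, 1.10, 0.86 and 0.90 in p63KO, and 0.39, 0.26, 0.82 and 0.77 in WT. All p63KO arrays lay above the other arrays, and the difference of p63KO/Cdx2 from p63KO was -0.39 (-0.85 to 0.06, adjusted p = 0.409, limma). In the authors' value table WT replicate 3, at 3.18, lay above all p63KO arrays, at 2.58, 2.50 and 2.39. Scg5, which encodes 7B2, the chaperone of a related convertase, had log2 ratios of 1.199 and 2.68 in p63KO/Cdx2, 2.43, 1.35 and 1.64 in p63KO, and 1.07, 1.64, 1.39 and 1.60 in WT. p63KO/Cdx2 replicate 2 and p63KO replicate 1 were high and the groups overlapped, with an interval of -0.87 to 1.14 for p63KO/Cdx2 against p63KO.
Insm1, a transcription factor of neuroendocrine differentiation, had log2 ratios of 0.93 and 0.62 in p63KO/Cdx2, 0.47, 0.49 and 0.37 in p63KO, and 0.84, 0.08, 0.32 and 0.36 in WT. Both p63KO/Cdx2 arrays lay above the p63KO arrays, by 0.33 on average (-0.12 to 0.79, adjusted p = 0.476, limma), while WT replicate 1 lay between the p63KO/Cdx2 arrays. The Scg2 probe (mm9 chr1:79432019-79432078, minus strand) reads coding sequence and is shown for that reason.
Scg2 probe: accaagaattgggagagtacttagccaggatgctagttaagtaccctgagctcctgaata

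The promoters of the granule genes are shown because several hold the same cAMP response element. RefSeq promoters (GRCm38.p6, 250 bases before to 50 after the start) were matched for 7 of the 9 genes, all but Calcb and Insm1. The palindrome TGACGTCA was found in 3 of the 7, at -68 in Scg2, -72 in Chgb and -78 in Pcsk1, counted from the transcript start to the first base of the motif, against 1.79% of 32851 promoters of the same length. The shorter TGACG, which lies within it, was found on either strand in 6 of the 7 and in 20.8% of all promoters, at -65 in Calca and -44 in Chga. Gad1 held neither form. The E-box CANNTG was found in 6 of the 7 and in 72.3% of all promoters, and TATAAA, on either strand, in 2 of the 7 and in 13.6%. The stretches run from -100 to -21, and capitals mark TGACGTCA in Scg2 (chr1:79440047-79440126, minus strand), Chgb (chr2:132781542-132781621) and Pcsk1 (chr13:75089757-75089836), and TGACG in Calca (chr7:114636378-114636457, minus strand) and Chga (chr12:102554841-102554920).
Scg2: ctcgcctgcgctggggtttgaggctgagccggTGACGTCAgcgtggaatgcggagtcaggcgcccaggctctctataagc
Chgb: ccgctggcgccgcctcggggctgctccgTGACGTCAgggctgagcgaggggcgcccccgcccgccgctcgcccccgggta
Pcsk1: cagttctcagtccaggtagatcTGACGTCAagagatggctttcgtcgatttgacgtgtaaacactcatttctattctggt
Calca: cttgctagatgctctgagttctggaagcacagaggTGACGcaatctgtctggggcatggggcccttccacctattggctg
Chga: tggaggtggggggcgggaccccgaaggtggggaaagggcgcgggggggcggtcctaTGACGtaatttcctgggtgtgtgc
A match is a description of these letters, and binding was not measured. Among the genes with the palindrome, the log2 ratio difference of p63KO/Cdx2 from WT was 0.95 for Pcsk1, -0.01 for Scg2 and 0.22 for Chgb.

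The wider granule and prohormone processing list had 31 measured genes of 34, members included. Of the 31, 28 lay below 0 in p63KO/Cdx2 against p63KO, with a median difference of -0.40, beside a median of -0.03 and 56.3% of genes below 0 over all genes tested, and 0 passed. In the same comparison 17 of 17 enteric neuron markers lay below 0 (median -0.38), as did 13 of 13 thyroid and parathyroid markers (median -0.20) and 11 of 12 airway and lung markers (median -0.32), and their part in the granule list's values was not tested. The granule list's median log2 sample signal was 8.90 and 9.52 in p63KO/Cdx2, against 10.06, 9.33 and 9.45 in p63KO. For enteric neuron markers it was 8.27 and 9.42, against 10.78, 9.07 and 10.01. For airway and lung markers it was 10.92 and 13.63, against 15.13, 13.49 and 13.58. In each of these lists p63KO/Cdx2 replicate 1 lay below all p63KO arrays and replicate 2 within their range. The genes share these arrays, so the counts are not separate evidence. The lowest p in the granule list outside the 9 genes belonged to Snap25, a vesicle fusion protein, with a difference of -0.84 (adjusted p = 0.266, limma). Pcsk1 was the 1 of the 31 that rose in p63KO/Cdx2 against WT, where 3.56% of all genes passed, with a list median of -0.22 beside -0.02 over all genes. Pcsk1 was chosen with these WT arrays in view, and of the 26 genes that are no members 0 rose. In p63KO against WT the list median was 0.16, beside 0.01 over all genes.

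**Figure D4:**
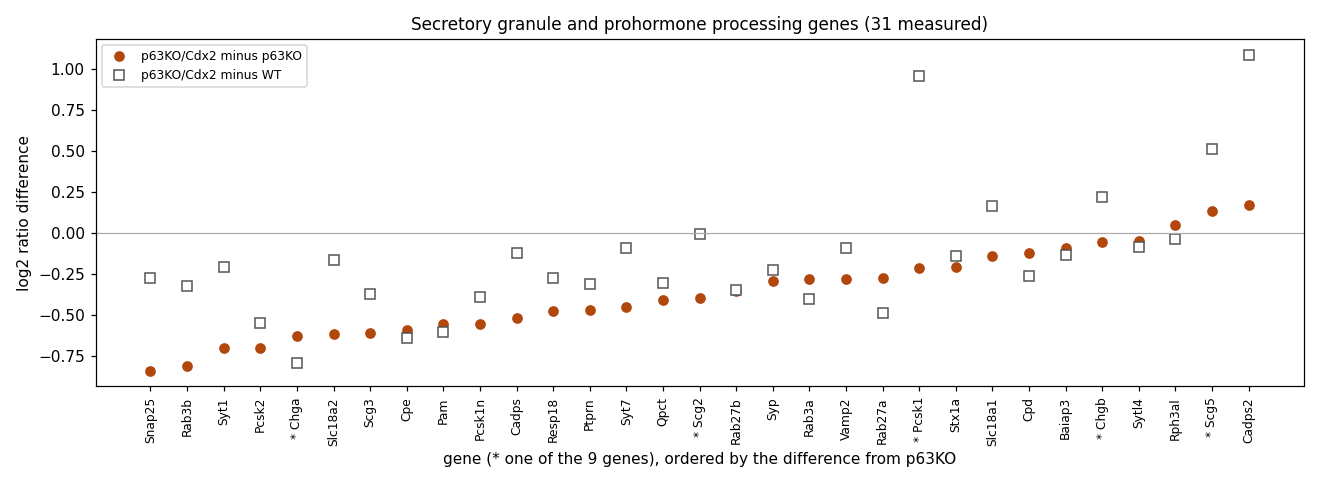
Log2 ratio differences (vertical axis) of 31 secretory granule and prohormone processing genes (horizontal axis, ordered by the filled points). Filled circles are p63KO/Cdx2 minus p63KO, of which 28 lie below 0, and open squares p63KO/Cdx2 minus WT, where Pcsk1 at 0.95 is the gene that passed.

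Of 27 measured peptide hormone and neuropeptide genes, 0 rose and 1 fell in p63KO/Cdx2 against WT, the neuropeptide gene Cartpt, by -0.64 (adjusted p = 0.0138, limma), and 0 passed against p63KO. On the sample channel 0 of the 27 passed in p63KO/Cdx2 against WT, Cartpt included. Among 20 measured neuroendocrine transcription factors, Isl1 fell by 1.24 (adjusted p = 0.027, limma) in p63KO/Cdx2 against WT, while Mnx1 was lower by 0.68 (adjusted p = 0.0391) in p63KO than in WT.

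Among 25 measured genes of GABA synthesis, transport and reception, Gad1 was the 1 that rose in p63KO/Cdx2 against WT, where 3.56% of all genes passed. Gad1 was chosen with these WT arrays in view, and of the 24 genes that are no members 0 rose. The receptor gene Gabrb2 fell by 0.49 (adjusted p = 0.0374, limma). Gad2, which encodes the second GABA-forming enzyme, was well above background on p63KO replicates 2 and 3 alone, with log2 ratios of -0.11 and 0.01 in p63KO/Cdx2, -0.16, 0.40 and 0.31 in p63KO, and -0.27, -0.08, -0.07 and -0.001 in WT. The vesicular GABA transporter gene Slc32a1 differed by -0.03 in p63KO/Cdx2 against WT (adjusted p = 0.931). Of 6 receptor genes of CGRP and calcitonin, 0 passed in any comparison on either scale, and the lowest p was that of Ramp3, at -0.41 in p63KO/Cdx2 against WT (adjusted p = 0.164). Of 12 genes of serotonin and catecholamine synthesis 0 passed in any comparison on either scale.

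Marker lists of other cell types were read beside the same 3.56% of all genes in p63KO/Cdx2 against WT, and beside 0.813% in p63KO against WT. In p63KO/Cdx2 against WT, 1 of 13 thyroid and parathyroid markers fell, Foxe1, by 1.85 (adjusted p = 0.0213, limma), 1 of 6 sensory neuron markers fell, Pou4f1, by 0.40 (adjusted p = 0.0344), and 2 of 7 Merkel cell markers fell, Isl1 and Sox2, of which Sox2 by 0.90 (adjusted p = 0.011). Sox2 was also lower in p63KO than in WT, by 0.67 (adjusted p = 0.037, limma). On the sample channel 0 of the 7 Merkel cell markers passed in p63KO against WT, and 0 of the 6 sensory neuron markers in p63KO/Cdx2 against WT. Foxe1 was well above background on every WT array, also on WT replicates 1 and 2, where Tg stood at 7.77 and 8.27. Which cells these lower values belong to was not tested. Of 17 enteric neuron, 9 glial and 12 airway markers 0 passed in any comparison on the log2 ratio, with Gfra1 (adjusted p = 0.3) lowest in p among the neuronal and Sftpd (adjusted p = 0.104) among the airway markers. On the sample channel 1 enteric neuron marker was lower in p63KO than in WT, and 1 airway marker was lower in p63KO/Cdx2 than in WT. Of 10 squamous markers 6 fell in p63KO/Cdx2 against WT, led by Sprr3 at -2.67 and Krt14 at -2.55, and 6 were lower in p63KO than in WT, by 2.82 for Sprr3 and 2.28 for Krt14.

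Genes with the most similar profile over the 9 arrays were sought by the root mean square difference of centred log2 ratios among 21526 genes. The nearest to Calcb were Kcnj1, at 0.214, Hamp, at 0.23, and Rimkla, at 0.283. Kcnj1, a potassium channel gene, differed by -0.53 in p63KO/Cdx2 against p63KO and by 1.10 in p63KO against WT. Hamp, which encodes the iron hormone hepcidin, differed by -0.40 and 1.07 in the same comparisons. The nearest to Gad1 were Lemd1, at 0.147, Nuak2, at 0.156, and Gm2881, at 0.161, with differences of 0.61, 0.64 and 0.51 in p63KO/Cdx2 against WT. All these genes were found by the likeness of their values on the same arrays. Their differences therefore follow from the search and are a description.

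The common reference channel did not stay constant for the brighter members, although the same reference RNA was labelled for every array. For Chga the reference signal over background was 82.4 and 127 in p63KO/Cdx2, 221, 676 and 426 in p63KO, and 208, 2264, 1287 and 1982 intensity units in WT, which was 4.79% to 9.46% of the sample signal on the same spot. For Chgb it was 199 and 293 in p63KO/Cdx2, 890, 331 and 543 in p63KO, and 341, 119, 145 and 123 in WT, or 3.16% to 4.58% of the sample signal. The reference followed the sample from array to array on these spots, so their log2 ratios span less than their sample signals. For Calcb, Gad1 and Pcsk1 the reference signals lay between 12.2 and 43.8 intensity units on all arrays, and both scales gave the same direction in each comparison with WT. The reference was well above background on 1 of 9 arrays for Calcb, 1 for Gad1 and 2 for Pcsk1. The log2 ratios of these genes thus rest on a reference near background. The Calcb reference lay higher in p63KO than in WT by 0.35 on the log2 scale, without overlap, and at such dim signals nothing is drawn from it.

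**Figure D5:**
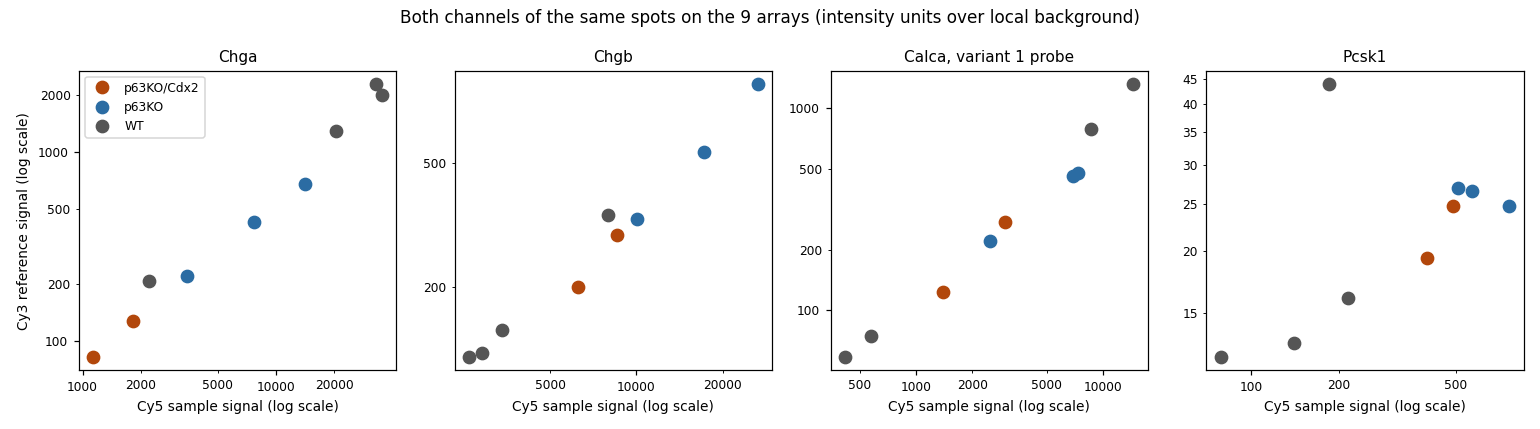
Reference signal (vertical axis, log scale) against sample signal (horizontal axis, log scale) over local background, in intensity units, for Chga, Chgb, Calca and Pcsk1 on the 9 arrays. For Chga the reference signal is higher where the sample signal is higher, between 82.4 and 2264 units, while for Pcsk1 it stays between 12.2 and 43.8 units.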

How the data were processed

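Total RNA of esophagus was hybridised to 2-colour arrays, 1 per sample, 9 in all. Per the file headers, the deposited files hold mean and local background intensity in each channel, from Feature Extraction 10.7.3.1 (9.1 in the submitters' processing notes), processed intensity values, and their log10 ratio. The authors' value table holds deposited log2 ratios, whose columns correlated with the log ratio of their own array's file at 0.992 or more. Of 45018 spots per array 1639 were controls, and on each array 30018 to 33228 probes had a sample signal flagged as well above background, which limits precision together with the number of arrays.

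Local backgrounds that the scanner software marked as outliers (1138 to 1588 spots per array in the sample channel) were set to the array's median background. This choice was made after the data were seen: on WT replicate 3, 7 spots with bright local backgrounds, the lowest at -5364.5 after subtraction, had shifted the fitted background mean to -232.99, against -7.83 after the change. Background was then corrected by normexp (offset 50) and ratios by loess within arrays, with Aquantile for single channels. Spots of a probe were averaged, 33749 probes well above background on at least 2 arrays were kept, and the brightest probe stood for each of 22644 genes, of which 22638 could be tested in each comparison. Genes were named through RefSeq (GRCm38.p6) where possible, and coordinates of probes are the files' own (mm9). limma 3.58.1 in R 4.3.3 fitted 3 genotypes over 9 arrays with Benjamini-Hochberg adjustment at 0.05, and was tested on simulated data. With each genotype on its own slide, p-values measure only the spread between these samples.

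The members and lists were chosen with earlier results of these data known. Named genes were all members, up to 2 passing genes per list, direction and comparison or else the gene with the lowest p, the 3 genes nearest in profile to Calcb and Gad1, the genes beside Calca and Calcb, and Trp63. Single genes named beside them as tissue markers (Tg, Pth, Stmn2, Th, Gad2, Slc32a1) were picked after their values were seen. Alternatives were other background corrections, normalizations, filters, probe summaries, priors, 2-group fits, a replicate block, the authors' table and fits without single arrays. Protein sequences were not used here. A few of the genes so chosen are not reported here.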

Additional observations from a re-analysis of the deposited data

Results flagged for a closer look

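In the WT group of 4 arrays, 3 of 54 tests for a single distant array passed Dixon's critical value, which chance alone passes in about 1 of 20 tests. The count is thus near what chance gives. Chga on the sample channel stood at 10.94 (10.935) on WT replicate 1, against 14.33 to 14.89 on the other WT arrays. Cartpt stood at 2.96 (2.957) on WT replicate 2 in the log2 ratio, against 3.09 to 3.11 on the others, and at 11.51 (11.511) on WT replicate 1 in the sample channel, against 10.67 to 10.80 on the others.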

How the results depend on the processing

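For the 9 genes, 0 differences past the threshold changed sign. Without single arrays some others did, such as Scg5 (-0.61 to 0.88) and Gad1 (-0.20 to 0.16) in p63KO/Cdx2 against p63KO, Calca (-0.22 to 0.24), Scg2 (-0.23 to 0.21) and Scg5 (-0.23 to 1.26) in p63KO/Cdx2 against WT, and Insm1 (-0.07 to 0.19) in p63KO against WT. All 198 settings in p63KO/Cdx2 against p63KO kept the side of the threshold on the log2 ratio, and 179 of 198 did in p63KO/Cdx2 against WT, with 18 calls lost and 1 gained. In p63KO against WT, genes past the threshold numbered 109 from the scanner software's processed signals, 299 with only the 2 groups fitted and 74 with all local backgrounds as given (chosen after seeing the data), against 184. Members past it there were 1 with plain background subtraction, 0 with processed signals and 0 in the authors' table. In p63KO/Cdx2 against p63KO, genes past it were 5 with processed signals, 4 in the authors' table and 1 with a trended robust prior. In p63KO/Cdx2 against WT, genes past it were 398 in the authors' table, 453 with 2 groups and 319 with backgrounds as given, and members were 1 with plain subtraction, 0 with processed signals, 0 in the authors' table, 1 with 2 groups and 1 with backgrounds as given. The causes were not tested.

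Same-numbered arrays had correlated deviations of -0.134 to 0.278, and arrays with different numbers -0.253 to 0.226. Deviations in the group of 2 arrays mirror each other, so these values cannot decide whether the numbers pair samples. With a replicate block, the log2 ratio gave 53 genes and 1 member in p63KO against WT and 37 genes and 1 member in p63KO/Cdx2 against WT, and the sample channel gave 110 genes and 0 members, 44 genes and 0 members, and 0 genes in p63KO/Cdx2 against p63KO. Gad1 then differed by 0.79 (adjusted p = 0.148, limma) in p63KO/Cdx2 against WT.

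Leaving out single arrays gave 90 to 299 genes and 1 to 3 members in p63KO against WT, 0 to 115 genes in p63KO/Cdx2 against p63KO (highest without p63KO/Cdx2 replicate 1), and 244 to 1172 genes and 0 to 2 members in p63KO/Cdx2 against WT. On the sample channel the ranges were 200 to 554 genes and 1 to 3 members, 8 to 210 genes, and 204 to 835 genes and 0 to 1 members. Where an arm kept 1 array, it was assumed to vary like the other groups. Signals near background in WT limit Calcb and Gad1.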

Other observations

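Several gut and pancreatic hormone genes outside the 9 members peaked on single arrays, picked here after their values were seen. Ghrl, which encodes ghrelin, stood at 8.36 and 8.57 in p63KO/Cdx2, 9.74, 9.60 and 9.29 in p63KO, and 11.68, 8.26, 8.85 and 8.28 in WT on the log2 sample channel. Peptide YY (Pyy) stood at 10.52 and 10.57 in p63KO/Cdx2, 11.00, 10.84 and 10.92 in p63KO, and 12.67, 10.12, 10.06 and 9.61 in WT. WT replicate 1 was highest for both genes. The insulin gene Ins2 stood at 7.74 and 7.48 in p63KO/Cdx2, 10.95, 7.48 and 7.38 in p63KO, and 7.36, 7.36, 7.65 and 7.49 in WT, high on p63KO replicate 1 alone.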
